A study of Mus musculus with 6 samples.

Results

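The collagen chains of the developing mouse aorta were followed through every gene whose symbol has the form Col, a number, a and a number. They comprised 44 of the 19938 genes measured, read through probe sets that carry exactly 1 gene symbol, and a chain with more than 1 such probe set was represented by the probe set with the highest mean. By structure 11 chains were fibrillar, 6 belonged to the basement membrane collagen type IV, 9 were fibril-associated, 3 formed networks and 15 fell in other classes. Ascending aorta and descending aorta of C57BL/6 wild-type embryos were taken at 13.5 days postcoitum without any treatment, and 3 arrays were run for each segment. The arrays of a segment are labelled biological replicates, but the labels name no embryo, litter or pool. The p-values then describe how far these samples spread, which may be technical. The series set out to find expression that depends on embryonic origin, since vascular smooth muscle derives largely from neural crest in the ascending aorta and from mesoderm in the descending aorta. The labels give the tissue as the segment itself and mention no sort for smooth muscle.

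A collagen molecule is a trimer of chains wound into a triple helix, and where the chains of a trimer differ they are encoded by separate genes. Fibrillar collagens, chiefly types I and III, form the tension-bearing fibres of the vessel wall, and fibril-associated collagens coat those fibres. Type IV builds the sheet of the basement membrane under endothelium and around each smooth muscle cell, type VIII forms a hexagonal network that vascular cells secrete, and type VI forms beaded filaments around cells.

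Values are log2 expression after RMA, the authors' normalization, so a difference of 1 is a doubling. A level is set only against the level of the same chain on other arrays, because probe sets differ in brightness. Differences are ascending minus descending throughout and carry the standard error (SE) of limma's linear model, fitted over all genes. Acta2, smooth muscle actin, read between 13.63 and 13.77 on all 6 arrays, but other smooth muscle markers varied more. Of the 9 on the list, 1 was lower and 1 higher at an unadjusted p under 0.05 in limma over all arrays. Among all genes 5.33% were lower and 3.96% higher at that p. The array labelled ascending replicate 3 stood nearer to the descending arrays for the collagens. Over the 44 chains its median absolute distance was 0.117, 0.0855 and 0.0877 to descending replicates 1, 2 and 3. To ascending replicates 1 and 2, which lay 0.11 from each other, it was 0.249 and 0.234. The files do not settle whether the label of this array is right, and every difference over 6 arrays rests on that label. Differences are therefore given over all 6 arrays and also without ascending replicate 3. Because its own values singled that array out, p-values and SEs of the second fit are likely too small.

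Over all 6 arrays no collagen chain had a limma p under 0.05 after adjustment, and the background was 0% of genes. The smallest adjusted p of a chain was 0.53. At an unadjusted p under 0.05, 11 chains were lower in ascending aorta (25% of the 44, against 5.33% of all genes) and 3 were higher (6.82%, against 3.96% of all genes). The lower count was 4 without ascending replicate 1, 4 without ascending replicate 2, 20 without ascending replicate 3, 3 without descending replicate 1 and 2 without descending replicate 2, and it was 18 with array weights. Leaving out descending replicate 2 or descending replicate 3 brought the higher count to 1. The 3 ascending arrays lay wholly below the 3 descending arrays for 9 chains (20.5%, against 8.95% of all genes) and wholly above for 3 chains (6.82%, against 5.87%). By their means 36 of the 44 chains were lower in ascending aorta, where 56.2% of all genes were, and the count was 34 if quantile normalization was repeated and 34 if arrays were centred on their medians. The median difference of the chains was -0.15, beside -0.021 for all genes. In bulk tissue fewer cells of a type and less RNA per cell cannot be told apart.

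Once ascending replicate 3 was left out, 13 chains passed an adjusted p of 0.05 in limma (29.5%, against 4.68% of all genes). Lower in ascending aorta were 10 chains (22.7%, against 2.61% of all genes), namely Col8a1, Col14a1, Col26a1, Col12a1, Col6a6, Col11a1, Col8a2, Col1a1, Col4a2 and Col2a1. Higher were 3 chains (6.82%, against 2.07% of all genes), namely Col9a1, Col4a5 and Col24a1. Unadjusted, 20 chains were lower and 4 higher at p under 0.05, where 9.27% and 7.98% of all genes were. Both remaining ascending arrays lay below all descending arrays for 26 chains (59.1%, against 18.9% of all genes) and above them for 5 (11.4%, against 15.6%). Differences of at least 2-fold were reached by 7 chains in the lower direction (15.9%, against 0.843% of all genes) and by 0 in the higher direction (against 0.597%). Col9a1 and Col2a1 lay just inside the threshold, with adjusted p = 0.0423 and 0.0441 by limma, and Col6a3 and Col6a1 just outside, with adjusted p = 0.0511 and 0.0609. With the descending mean set to 0 and the mean of ascending replicates 1 and 2 set to 1, ascending replicate 3 stood at a median of 0.0101 over the 13 chains, between -0.32 for Col2a1 and 0.242 for Col4a5. It lay beyond all descending arrays on the side of the other ascending arrays for 4 of the 13, within the descending range for 5, and beyond it on the opposite side for 4.

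**Figure D1:**
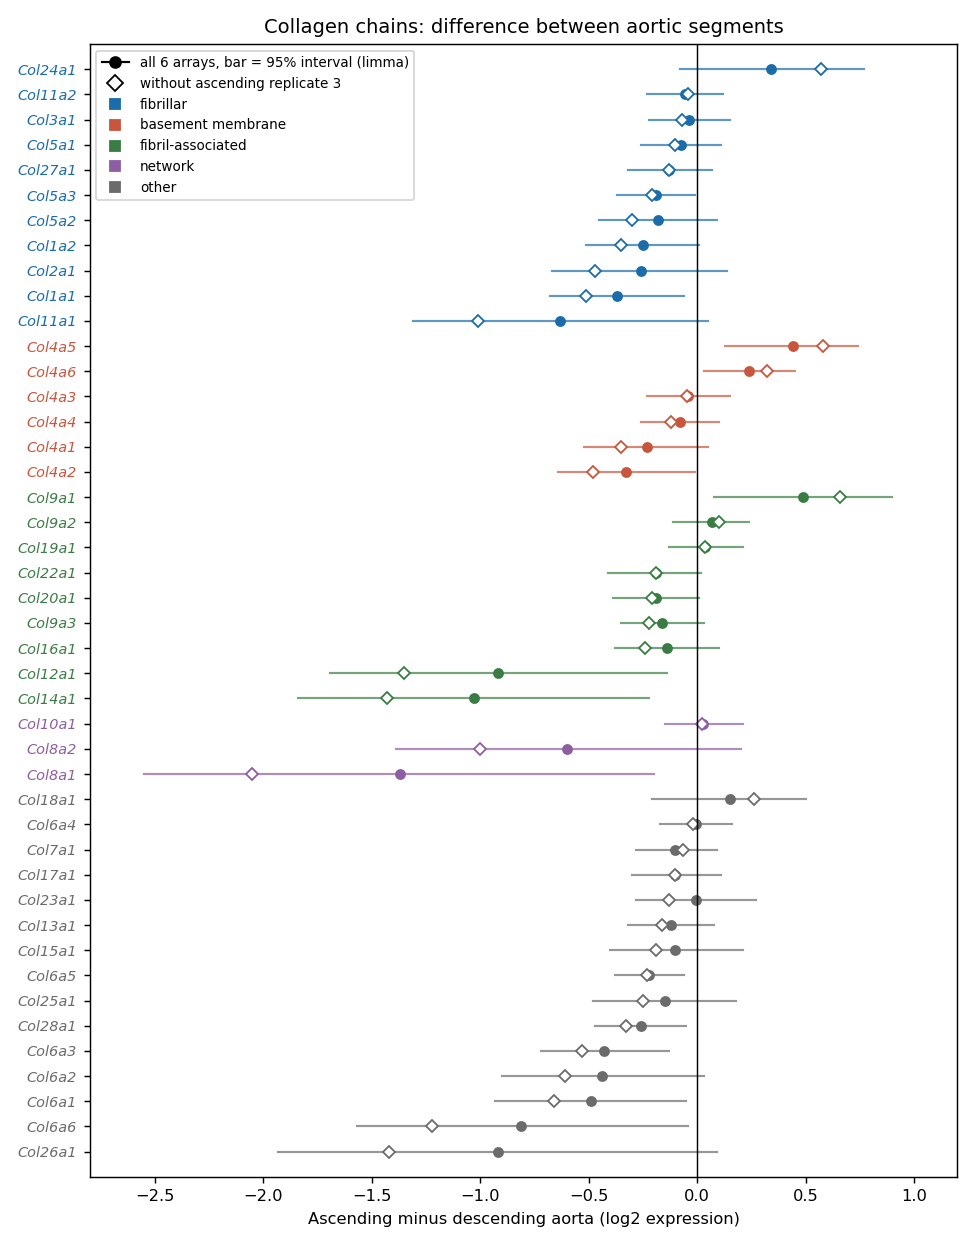
Difference between ascending and descending aorta for each of the 44 chains on the log2 scale, grouped and coloured by structural class. Filled circles with bars are the estimates over all 6 arrays with 95% intervals from limma, and open diamonds are the estimates without ascending replicate 3. Most points lie left of 0, Col8a1 farthest at -1.37, while Col9a1, Col4a5 and Col24a1 lie to the right at 0.49, 0.44 and 0.34.

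Among the fibrillar chains the type I collagen of the fibres was lower in ascending replicates 1 and 2, and type III overlapped between the segments. Col1a1, the chain present in duplicate in each type I trimer, stood at 12.93, 12.79 and 13.28 on ascending replicates 1, 2 and 3 and at 13.47, 13.35 and 13.28 on the descending arrays. The ascending arrays lay below the descending arrays, although ascending replicate 3 and descending replicate 3 nearly met. The difference was -0.37 ± 0.13 (SE) over all arrays and -0.51 ± 0.10 without ascending replicate 3. Its partner in the trimer, Col1a2, read 12.69, 12.59 and 12.95 in ascending aorta and lay between 12.90 and 13.08 on the descending arrays, a difference of -0.25 ± 0.11 over all arrays with groups that overlapped. Left with ascending replicates 1 and 2, Col1a2 differed by -0.35 ± 0.10 and did not pass (adjusted p = 0.0963 by limma). Col3a1, which makes type III, the extensible fibre of vessels, gave 12.05, 12.20 and 12.23 against 12.19, 12.17 and 12.23. Its difference of -0.036 ± 0.080 had a 95% interval from -0.22 to 0.15, and its sign turned to 0.0056 after repeated quantile normalization and to 0.019 without ascending replicate 1. Measured on the same array against Col1a1, Col3a1 was therefore displaced upward in ascending replicates 1 and 2, by 0.29 and 0.58 relative to the descending mean of that log2 ratio, and by 0.12 in ascending replicate 3.

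The 5 minor fibrillar chains, which start fibrils and set their diameter, were all lower by the mean over all arrays. So were 81.8% of the 44 chains and 56.2% of all genes. Without ascending replicate 3, 1 of the 5 passed as lower, where 2.61% of all genes did. Col11a1, which nucleates the fibrils of cartilage and is also made in other embryonic mesenchyme, stood at 8.40 and 8.27 on ascending replicates 1 and 2, at 9.48 on replicate 3, and at 9.36, 9.45 and 9.23 on the descending arrays. Ascending replicates 1 and 2 were low and replicate 3 was above every descending array. The difference was -0.63 ± 0.29 over all arrays and -1.01 ± 0.10 without ascending replicate 3, a 2.02-fold lower level (adjusted p = 0.00201 by limma). Col11a2, its partner chain, stayed between 7.64 and 7.77 on all 6 arrays, a difference of -0.054 ± 0.075 over all arrays and -0.042 ± 0.092 without ascending replicate 3. Type V collagen is built into type I fibres: Col5a1 differed by -0.072 ± 0.079, Col5a2 by -0.18 ± 0.12 and Col5a3 by -0.19 ± 0.078 over all arrays. For Col5a3 the ascending arrays, at 7.68, 7.6 and 7.71, lay below the descending arrays at 7.85, 7.93 and 7.79. Without ascending replicate 3 they differed by -0.10, -0.30 and -0.21, and none of them passed (adjusted p = 0.688, 0.119 and 0.303 by limma).

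Col2a1, the main chain of cartilage fibrils, read 8.49, 8.37 and 9.05 in ascending and 9.03, 8.84 and 8.83 in descending aorta. It differed by -0.26 ± 0.17 over all arrays and by -0.47 ± 0.10 without ascending replicate 3, which itself gave the highest value of the 6. Col24a1, a fibrillar chain with a short and interrupted helix known from developing bone, went the other way. It gave 8.05 and 8.16 on ascending replicates 1 and 2, 7.42 on replicate 3 and 7.6, 7.51 and 7.48 in descending aorta, so that ascending replicate 3 was the lowest array. The difference was 0.34 ± 0.18 over all arrays and 0.57 ± 0.094 without that array (adjusted p = 0.015 by limma). Col27a1, the related chain, differed by -0.13 ± 0.085 over all arrays and by -0.13 ± 0.10 without ascending replicate 3, with groups that overlapped.

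The fibril-associated collagens held chains with both directions. Col14a1, which coats type I fibrils and limits their growth in width, stood at 10.39, 9.57 and 11.18 on the ascending arrays and at 11.41, 11.47 and 11.37 on the descending arrays. All ascending arrays lay below all descending arrays, and the SD was 0.81 in ascending and 0.049 in descending aorta. The difference was -1.03 ± 0.35 over all arrays and -1.43 ± 0.21 without ascending replicate 3, a 2.70-fold lower level (adjusted p = 0.00892 by limma). Col12a1, a related chain of tendon and dense connective tissue, read 11.14 and 11.24 on ascending replicates 1 and 2, 12.48 on replicate 3 and 12.76, 12.49 and 12.37 in descending aorta. It differed by -0.92 ± 0.33 over all arrays and by -1.35 ± 0.13 without ascending replicate 3, where it was 2.54-fold lower (adjusted p = 0.0016 by limma). Col1a1 is a chain of the fibril they decorate. As a log2 ratio to Col1a1 on the same array, relative to its descending mean, Col12a1 stood at -0.96 and -0.72 on ascending replicates 1 and 2 and Col14a1 at -0.58 and -1.27. On ascending replicate 3 these ratios were 0.03 for Col12a1 and -0.14 for Col14a1.

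Type IX collagen, which covers the type II fibrils of cartilage, is a trimer of Col9a1, Col9a2 and Col9a3. The estimates of its chains differed in sign, and only Col9a1 passed without ascending replicate 3. Col9a1 gave 8.86, 9.33 and 8.59 on the ascending arrays and 8.49, 8.46 and 8.36 on the descending arrays, with no overlap. The difference was 0.49 ± 0.17 over all arrays and 0.66 ± 0.14 without ascending replicate 3 (adjusted p = 0.0423 by limma). Col9a2 lay between 8.33 and 8.50 on all arrays, a difference of 0.067 ± 0.076 over all arrays and 0.10 ± 0.089 in the fit of 5. Col9a3 had the opposite sign: 8.16, 8.12 and 8.33 in ascending against 8.37, 8.39 and 8.33 in descending aorta, or -0.16 ± 0.082 over all arrays and -0.22 ± 0.088 in the fit of 5 (adjusted p = 0.248 by limma). From its descending mean the log2 ratio of Col9a1 to Col9a3 deviated by 0.62, 1.14 and 0.19 in ascending replicates 1, 2 and 3 and by between -0.04 and 0.05 on the descending arrays. The 9 cartilage markers summed to 1962 to 2224 array units in ascending and 1868 to 2155 in descending aorta. These units are values taken out of the log, so the brightest probe sets weigh most in such a sum. At an unadjusted p under 0.05 over all arrays 1 of the 9 was lower and 0 were higher, against 5.33% and 3.96% of all genes. Among them Acan, the cartilage proteoglycan, stood at 9.78, 9.54 and 8.61 against 9.19, 8.54 and 8.73, and Chad, a cartilage leucine-rich protein, at 7.23, 6.98 and 8.52 against 8.42, 8.28 and 8.67. Whether cartilage cells took part in the values of Col2a1, Col9a1 and Col11a1 was not tested.

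Type VIII collagen, the network collagen of vascular cells and of the corneal membrane, held the chain with the largest difference of the 44. Col8a1 stood at 8.15 and 7.97 on ascending replicates 1 and 2, at 10.09 on replicate 3 and at 10.20, 10.21 and 9.92 in descending aorta. Ascending replicates 1 and 2 were far below the other 4 arrays, and replicate 3 lay inside the descending range. The difference was -1.37 ± 0.50 over all arrays. With that array left out it was -2.05 ± 0.12, a 4.13-fold lower level (adjusted p = 0.000245 by limma). Its partner Col8a2 read 8.71, 8.01 and 9.58 in ascending and 9.38, 9.40 and 9.31 in descending aorta, with replicate 3 above every descending array. Col8a2 differed by -0.60 ± 0.34 over all arrays and by -1.0 ± 0.19 without ascending replicate 3 (adjusted p = 0.0234 by limma). Set against Col8a2 on the same array, the log2 ratio of Col8a1 deviated from its descending mean by -1.31, -0.78 and -0.24 in ascending replicates 1, 2 and 3 and by between -0.13 and 0.08 on the descending arrays, so the ratio was lower on each ascending array. Col10a1, the short-chain network collagen of growth plate cartilage, lay between 6.17 and 6.30 on all arrays. Its difference was 0.029 ± 0.075 over 6 arrays and 0.024 ± 0.093 over 5, and its mean level stood at percentile 26.1 of all genes.

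The bases before the annotated start of both type VIII genes are shown because these partner chains were low on the same arrays. They come from RefSeq on GRCm38.p6, which held upstream windows for 35 of the 44 chains, and are printed 5′ to 3′ in the direction of transcription up to the base before the start. Capitals mark GGGCGG or its reverse complement CCGCCC, the letters of a GC box, and CCAAT or its reverse complement ATTGG. The Col8a1 window is chr16:57754738-57754987 on the minus strand and the Col8a2 window chr4:126286544-126286793 on the plus strand.
Col8a1: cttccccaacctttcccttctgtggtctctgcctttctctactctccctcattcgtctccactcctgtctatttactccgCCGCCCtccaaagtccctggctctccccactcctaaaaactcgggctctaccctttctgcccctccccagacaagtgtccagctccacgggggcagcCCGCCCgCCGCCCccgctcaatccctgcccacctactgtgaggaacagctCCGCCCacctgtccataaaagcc
Col8a2: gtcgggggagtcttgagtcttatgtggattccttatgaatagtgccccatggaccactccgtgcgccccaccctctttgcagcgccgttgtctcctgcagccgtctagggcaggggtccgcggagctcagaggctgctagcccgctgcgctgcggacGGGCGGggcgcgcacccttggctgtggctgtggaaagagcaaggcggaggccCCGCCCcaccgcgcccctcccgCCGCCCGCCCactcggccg
Each window held 4 matches to the GC box letters on either strand, of which a pair in Col8a2 overlap, and 0 to CCAAT. The GC box letters were present in 32.7% of the 32851 upstream windows of 250 bases in the table and in 57.9% of the 38 windows of collagen genes. CCAAT was present in 33.8% and 34.2%. A match to these letters describes the sequence and is no evidence that a factor binds there.

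**Figure D2:**
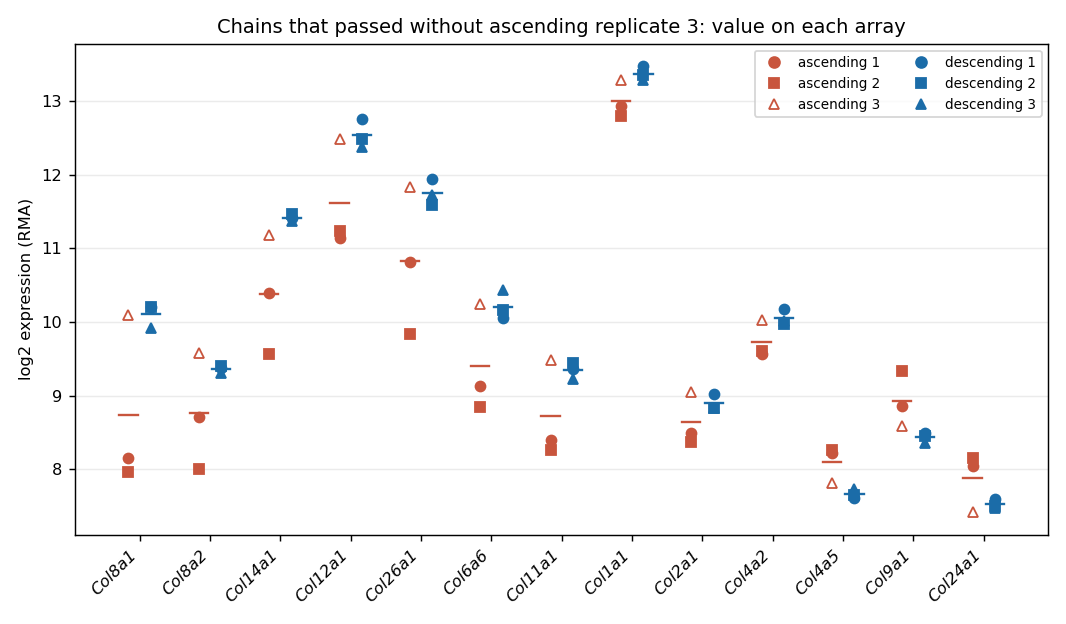
Log2 expression on each of the 6 arrays for the 13 chains that passed without ascending replicate 3. Red symbols are ascending and blue symbols descending arrays, the open triangle is ascending replicate 3, and short lines are group means over all 3 arrays. For Col8a1 ascending replicates 1 and 2 sit at 8.15 and 7.97, far below the open triangle at 10.09 and the descending arrays, and the open triangle lies near the blue symbols for most chains.

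The type IV chains of the basement membrane split by gene pair. The pair Col4a1 and Col4a2, which make the trimer found in nearly every basement membrane, was lower in ascending replicates 1 and 2. The pair Col4a5 and Col4a6, which make the trimer of smooth muscle and some epithelial basement membranes, was higher on all ascending arrays. The pair Col4a3 and Col4a4, known from kidney glomerulus and lung, overlapped between segments. Col4a1 stood at 10.08, 10.29 and 10.54 against 10.55, 10.45 and 10.60, a difference of -0.23 ± 0.12 over all arrays and -0.35 ± 0.10 without ascending replicate 3 (adjusted p = 0.123 by limma). Col4a2 stood at 9.56, 9.61 and 10.03 against 10.18, 9.98 and 10.01. It differed by -0.33 ± 0.14 over all arrays and by -0.48 ± 0.10 without ascending replicate 3, where it passed (adjusted p = 0.0359 by limma). For both genes ascending replicate 3 lay within the descending range.

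Col4a5 read 8.23, 8.27 and 7.81 on the ascending arrays and 7.61, 7.66 and 7.73 on the descending arrays, without overlap. The difference was 0.44 ± 0.13 over all arrays and 0.58 ± 0.091 without ascending replicate 3, a 1.5-fold higher level (adjusted p = 0.0114 by limma). Col4a6 read 7.19, 7.14 and 6.94 against 6.89, 6.83 and 6.83, again without overlap. It differed by 0.24 ± 0.090 over all arrays, and by 0.32 ± 0.088 without ascending replicate 3, where it did not pass (adjusted p = 0.0966 by limma). Even ascending replicate 3 lay above the descending arrays for both genes, by 0.14 and 0.09 from the descending mean. As a log2 ratio to Col4a1 on the same array, relative to the descending mean, Col4a5 was at 1.02, 0.85 and 0.14 on ascending replicates 1, 2 and 3 and between -0.07 and 0.07 on the descending arrays. Col4a3 differed by -0.040 ± 0.082 and Col4a4 by -0.079 ± 0.077 over all arrays, and by -0.046 ± 0.10 and -0.12 ± 0.091 without ascending replicate 3. For both genes the groups overlapped over all arrays. The mean levels of Col4a3, Col4a4 and Col4a6 stood at percentiles 36.7, 41.7 and 37.6 of all genes, so these chains were dim. Whether they were expressed was not tested. The class median of -0.060 lies between pairs of opposite sign. It was -0.081 without ascending replicate 3, -0.023 if quantile normalization was repeated, -0.034 without ascending replicate 2, -0.035 without descending replicate 2 and -0.10 without descending replicate 3.

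Each type IV pair lies head to head in the genome, with its genes transcribed away from each other. In the RefSeq annotation of GRCm38.p6 the starts used for the upstream windows of Col4a1 and Col4a2 are 21 bases apart and their transcripts overlap there, while those of Col4a5 and Col4a6, on the X chromosome, are 1343 bases apart. The stretches before Col4a5 and Col4a6 are shown because this pair was high together. Each gene has an annotated transcript that begins farther upstream than the start used for its window, and the bases shown end where the annotated gene begins, so 49 bases next to the Col4a5 start and 19 next to the Col4a6 start are left out. They are chrX:141475169-141475369 on the plus strand and chrX:141474096-141474326 on the minus strand, with the same letters in capitals.
Col4a5: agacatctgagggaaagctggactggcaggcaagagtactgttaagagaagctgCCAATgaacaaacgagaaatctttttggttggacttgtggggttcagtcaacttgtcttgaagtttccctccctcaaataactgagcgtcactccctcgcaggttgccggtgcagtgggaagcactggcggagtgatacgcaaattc
Col4a6: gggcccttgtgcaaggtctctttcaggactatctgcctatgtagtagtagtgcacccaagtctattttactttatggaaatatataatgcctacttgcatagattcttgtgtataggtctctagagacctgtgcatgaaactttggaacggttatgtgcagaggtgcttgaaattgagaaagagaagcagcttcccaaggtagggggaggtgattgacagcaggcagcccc
The 201 bases shown for Col4a5 held 1 match to CCAAT and 0 to the GC box letters, and the 231 shown for Col4a6 held 0 matches to either. In the whole windows of 250 bases each gene had 1 match to the GC box letters, which therefore lies at least partly in the bases left out.

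**Figure D3:**
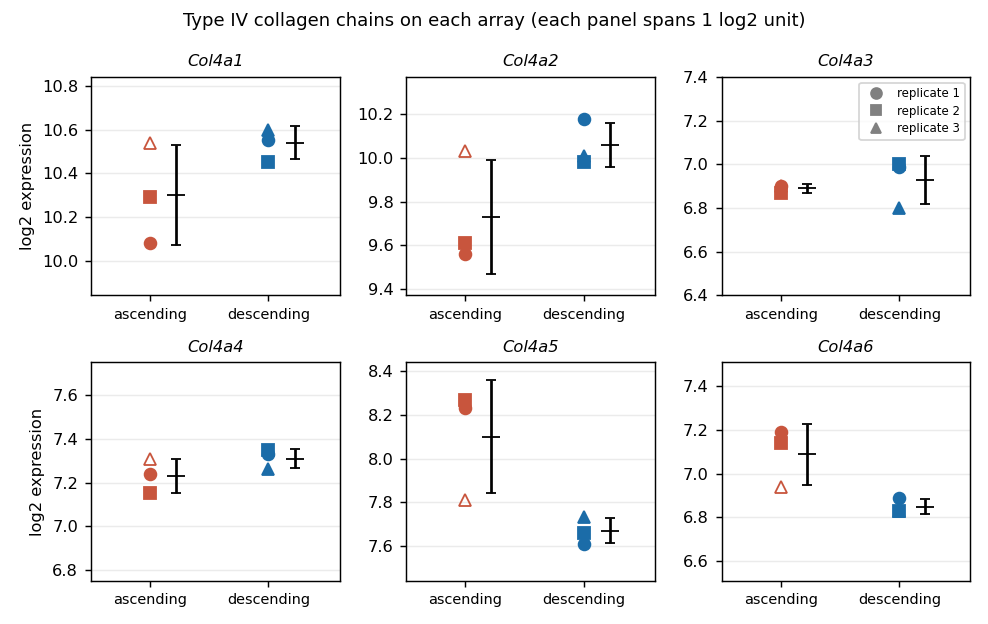
Log2 expression of the 6 type IV chains on each array, by segment, in panels that each span 1 log2 unit. Circles, squares and triangles are replicates 1, 2 and 3, the open triangle is ascending replicate 3, and black marks with bars are the mean ± SD (n = 3). Col4a5 and Col4a6 are higher on every ascending array, Col4a1 and Col4a2 are lower on ascending replicates 1 and 2, and Col4a3 and Col4a4 overlap.

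Type VI collagen, the beaded filament that links cells to the surrounding fibres, was lower by the mean in each of its 6 genes. By that measure 81.8% of the 44 chains and 56.2% of all genes were lower. The difference of Col6a4 was far smaller than its SE, and its sign changed with the processing. Col6a3, the large chain of the standard trimer, gave 10.88, 11.23 and 11.36 in ascending and 11.64, 11.58 and 11.54 in descending aorta, without overlap, and had the smallest unadjusted p of the 44 chains in limma (0.0103). It differed by -0.43 ± 0.13 over all arrays and by -0.53 ± 0.12 without ascending replicate 3, just outside the threshold. Col6a1 gave 10.28, 9.74 and 10.52 against 10.55, 10.76 and 10.70, also without overlap, a difference of -0.49 ± 0.19 over all arrays and -0.66 ± 0.16 without ascending replicate 3. Col6a2, its neighbour on the chromosome and partner in the trimer, gave 10.69, 10.06 and 10.90 against 10.88, 11.01 and 11.06, a difference of -0.44 ± 0.20 over all arrays and -0.61 ± 0.17 without ascending replicate 3 (adjusted p = 0.104 by limma). These last 2 chains kept their ratio: the log2 ratio of Col6a1 to Col6a2 stayed between -0.09 and 0.06 of its descending mean on all arrays.

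Col6a4, Col6a5 and Col6a6 are neighbouring genes for chains that can stand in for Col6a3, and their sequences are related. Col6a6 read 9.13 and 8.85 on ascending replicates 1 and 2, 10.24 on replicate 3 and 10.05, 10.17 and 10.43 in descending aorta. It differed by -0.81 ± 0.33 over all arrays and by -1.22 ± 0.14 without ascending replicate 3, a 2.34-fold lower level (adjusted p = 0.00299 by limma). A second Col6a6 probe set gave a difference of -0.83 over all arrays. Col6a5 stood at 7.0, 7.01 and 7.05 against 7.23, 7.26 and 7.22, a difference of -0.22 ± 0.069 in which ascending replicate 3 lay with its own group, and a second probe set gave -0.31. Without ascending replicate 3 Col6a5 differed by -0.23 ± 0.087 and did not pass (adjusted p = 0.218 by limma). The mean levels of Col6a5 and Col6a4 stood at percentiles 39.8 and 30.1 of all genes, so both chains were dim. Col6a4 lay between 6.44 and 6.54 on all arrays, and its difference of -0.0057 ± 0.072 turned positive if quantile normalization was repeated (0.050) or arrays were median-centred (0.0011).

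Among the remaining classes Col26a1, a short collagen with an EMI domain, had a wide spread in ascending aorta. It read 10.81, 9.84 and 11.83 on the ascending and 11.94, 11.59 and 11.72 on the descending arrays. The difference was -0.92 ± 0.43 over all arrays and -1.42 ± 0.25 without ascending replicate 3, which lay inside the descending range, and the level was then 2.68-fold lower (adjusted p = 0.0199 by limma). Col28a1, a chain with von Willebrand factor A domains found around peripheral nerves, gave 7.38, 7.38 and 7.59 against 7.80, 7.64 and 7.69. It differed by -0.26 ± 0.090 over all arrays, and by -0.33 ± 0.093 without ascending replicate 3, where it did not pass (adjusted p = 0.105 by limma). Of the Schwann cell and neuron markers 5 were measured, and their summed level was 1722 to 1975 array units in ascending and 1913 to 2033 in descending aorta. At an unadjusted p under 0.05 over all arrays 0 of the 5 were lower and 1 was higher, against 5.33% and 3.96% of all genes. The higher marker was Elavl4, a neuronal RNA-binding protein, at 6.92, 6.81 and 5.92 against 5.98, 5.83 and 6.01. It passed as higher without ascending replicate 3 (adjusted p = 0.00243 by limma), where 2.07% of all genes did. Sox10, a transcription factor of Schwann cells and their precursors, differed in the other direction, at 7.41, 7.06 and 7.73 against 7.86, 7.68 and 7.71, and did not pass (adjusted p = 0.0658). The part of such cells in the Col28a1 values was not tested.

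The other 14 chains had no unadjusted p under 0.05 over all arrays and did not pass without ascending replicate 3. They were Col16a1, Col19a1, Col20a1 and Col22a1 of the fibril-associated class, the transmembrane chains Col13a1, Col17a1, Col23a1 and Col25a1, the multiplexins Col15a1 and Col18a1, which lie at basement membranes and release antiangiogenic fragments, Col7a1 of anchoring fibrils, and Col10a1, Col27a1 and Col6a4. Their differences over all arrays ran from -0.19 for Col20a1 and Col22a1 to 0.15 ± 0.15 for Col18a1, and without ascending replicate 3 from -0.25 for Col25a1 to 0.26 for Col18a1. Col20a1 was the chain among these 14 whose groups did not overlap, at 7.31, 7.21 and 7.33 against 7.49, 7.57 and 7.35. Col23a1 differed by -0.0056 ± 0.12 and turned to 0.0012 after median-centring. Its highest array was ascending replicate 3, at 8.85, against 8.48 and 8.46 on the other ascending arrays. The 95% interval of Col18a1 ran from -0.21 to 0.50, so differences of that size in either direction were not resolved.

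By class, the median difference over all arrays was -0.18 for fibrillar chains, -0.16 for fibril-associated chains, -0.60 for the 3 network chains and -0.15 for the other classes. The network median was the value of Col8a2 alone, which lay between Col8a1 at -1.37 and Col10a1 at 0.029. Without ascending replicate 3 the fibrillar and fibril-associated medians were -0.212 and -0.211. The fibrillar median was -0.098 without ascending replicate 1, and the network median -0.22 without ascending replicate 2 and -1.0 without ascending replicate 3. For the other classes it came to -0.23 when ascending replicate 3 was left out and to -0.22 when descending replicate 3 was. By array, relative to the descending mean, ascending replicates 1 and 2 had medians over the 44 chains of -0.21 and -0.24, and ascending replicate 3 had -0.026. The descending arrays gave 0.035, 0.0035 and -0.046, and all genes gave -0.015, -0.016 and -0.025 on the ascending arrays. Whether the classes differed from each other was not tested.

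**Figure D4:**
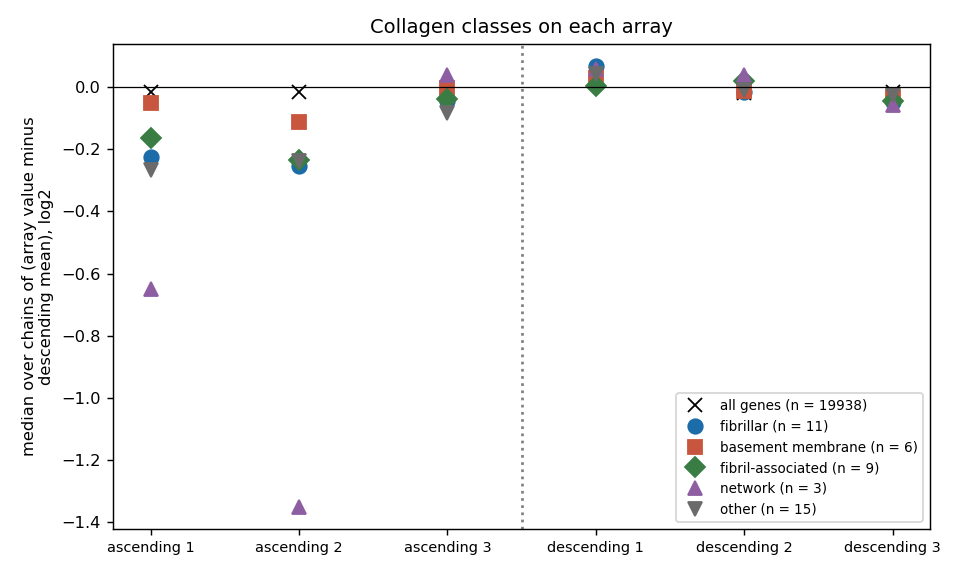
Median over the chains of each structural class of the array's value minus the descending mean, on the log2 scale, for each of the 6 arrays, with all 19938 genes as crosses. The network class holds 3 chains, so its median is the value of a single gene. On ascending replicates 1 and 2 the fibrillar, fibril-associated and other classes lie between -0.165 and -0.265 and the network class at -0.65 and -1.35, while on ascending replicate 3 no class median lies below -0.083.

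Genes that act on collagen were read from the same fit. A collagen chain is hydroxylated and folded in the endoplasmic reticulum, trimmed by proteases outside the cell, cross-linked by lysyl oxidases and bound by integrins and discoidin receptors. Over all 6 arrays 0 genes of these lists passed in limma, where the background was 0%. At an unadjusted p under 0.05, where 5.33% of all genes were lower and 3.96% higher, 3 of 19 measured hydroxylases and chaperones were lower in ascending aorta and 0 higher. Their median difference was -0.075. P4ha1 and P4ha2, catalytic subunits of prolyl 4-hydroxylase, differed by -0.23 ± 0.10 and -0.28 ± 0.10 over all arrays, and P4ha3, a further catalytic subunit, by -0.075 ± 0.095. The lysyl hydroxylase Plod1 differed by -0.23 ± 0.10 and Mia3, which loads collagen for secretion, by -0.31 ± 0.13. Without ascending replicate 3 the differences were -0.24 for P4ha1, -0.21 for P4ha2, -0.10 for P4ha3, -0.32 for Plod1 and -0.24 for Mia3, and none of these 5 passed.

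Of 11 processing and cross-linking genes, 3 were lower and 0 higher at that unadjusted p, against 5.33% and 3.96% of all genes, with a median of -0.28. Pcolce2, an enhancer of procollagen trimming, stood at 7.33, 7.18 and 7.21 in ascending and 7.76, 7.58 and 7.79 in descending aorta, so that ascending replicate 3 lay with its own group. It differed by -0.47 ± 0.088 over all arrays and by -0.45 ± 0.11 without ascending replicate 3, where it did not pass (adjusted p = 0.0534 by limma). Of the proteases that trim the ends of procollagen, Adamts14 differed by -0.35 ± 0.11 over all arrays and -0.41 ± 0.12 in the fit of 5, and Adamts3 by 0.58 ± 0.27 and 0.88 ± 0.18. The lysyl oxidase Loxl3 differed by -0.38 ± 0.13 and -0.49 ± 0.12. In the fit of 5 arrays, where 2.61% of all genes passed as lower and 2.07% as higher, 2 processing genes passed as lower and 1, Adamts3, as higher. Of the 19 hydroxylases and chaperones 1 passed as lower and 0 as higher, which is near those shares.

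Some receptors were low on all 3 ascending arrays. Of 9 measured collagen receptors 3 were lower and 0 higher at an unadjusted p under 0.05 over all arrays, against 5.33% and 3.96% of all genes. Itga1, the alpha 1 integrin subunit that binds type IV collagen, stood at 8.82, 9.03 and 9.26 against 9.67, 9.58 and 9.56. It differed by -0.57 ± 0.12 over all arrays and by -0.68 ± 0.10 without ascending replicate 3. Itga2, the alpha 2 subunit that binds type I collagen, stood at 8.41, 8.55 and 8.90 against 9.55, 9.12 and 9.18. It differed by -0.67 ± 0.16 and -0.81 ± 0.14. Ddr2, the discoidin receptor of fibrillar collagens, differed by -0.48 ± 0.16 and -0.64 ± 0.12, and Itga11, another fibrillar collagen receptor subunit, by -0.34 ± 0.17 and -0.38 ± 0.19. The ascending arrays lay wholly below the descending arrays for 3 of the 9, Itga1, Itga2 and Ddr2, as they did for 8.95% of all genes. In the fit of 5 arrays these 3 passed as lower and Ddr1, the discoidin receptor of epithelium, passed as higher, where 2.61% and 2.07% of all genes passed.

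Of 14 genes for other basement membrane proteins 3 were lower and 0 higher at an unadjusted p under 0.05 over all arrays, again against 5.33% and 3.96% of all genes. The laminin chains Lama3 and Lama4 differed by -0.53 ± 0.16 and -0.52 ± 0.18 over all arrays, the linker Nid1 by -0.26 ± 0.093 and Lama1 by -0.20 ± 0.10. With ascending replicate 3 left out these differences were -0.69, -0.73, -0.31 and -0.26. In that fit 2 of the 14, Lama3 and Lama4, passed as lower and 1, the laminin chain Lama2, as higher, against 2.61% and 2.07% of all genes. Lama2 stood at 9.98, 10.43 and 9.38 against 9.65, 9.46 and 9.45. It differed by 0.41 ± 0.24 over all arrays and by 0.69 ± 0.14 without ascending replicate 3 (adjusted p = 0.0371 by limma). By their means over all arrays 10 of the 14 were lower and 4 higher, where 56.2% of all genes were lower.

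Markers of other cell types were read on the same arrays, at an unadjusted p under 0.05 over all 6, where 5.33% of all genes were lower and 3.96% higher. Of 8 fibroblast and adventitia markers, 2 were lower and 1 higher. Their summed level was 19519 to 22867 array units in ascending and 22545 to 23634 in descending aorta. Dpt, dermatopontin, stood at 9.46, 8.82 and 10.04 against 10.61, 10.57 and 10.80, Pi16 differed by -0.46 ± 0.17, and Lum, the fibril-binding proteoglycan lumican, by 0.31 ± 0.13. Of 10 endothelial markers 7 were lower and 0 higher, and they summed to 15066 to 21802 units against 22549 to 26458. Of 8 mesothelial and epicardial markers 7 were higher and 0 lower, and they summed to 5286 to 12148 units against 3533 to 4830. Of 10 cardiac muscle markers 4 were higher and 0 lower (6347 to 10605 units against 4546 to 5936), and of 8 macrophage markers 2 were lower and 0 higher (2570 to 6186 units against 5958 to 6156). The 9 smooth muscle markers summed to 28540 to 34920 units against 29983 to 31348, with 1 lower and 1 higher and a median difference of -0.022. The 3 measured erythroid markers summed to 13393 to 15898 against 13560 to 17398, with 0 in either direction. Most of that sum was Hbb-y, at 13.60 to 13.98 on the log2 scale. In each list the brightest probe sets weigh most in the sum.

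Without ascending replicate 3, where 2.61% of all genes passed as lower and 2.07% as higher, 4 endothelial and 3 macrophage markers passed as lower, and 6 mesothelial, 2 cardiac and 2 smooth muscle markers passed as higher. Those smooth muscle markers were Des and Lmod1. Des stood at 10.38, 10.82 and 8.68 against 8.50, 8.36 and 8.80, and Lmod1 at 8.63, 8.66 and 7.91 against 8.14, 7.93 and 8.26. For Mylk and Myh11, of the same list, all ascending arrays lay below all descending arrays, as for 8.95% of all genes, and neither passed. Among the fibroblast and adventitia markers 1 passed in each direction, and so it was among the cartilage markers. Ascending replicate 3 gave 21802 units for the endothelial and 5286 for the mesothelial list, nearer to the descending arrays than ascending replicates 1 and 2 were. RMA gives each probe set a level above 0, so a marker at 0 could not be seen. The part of these cell types in the collagen differences was not tested.

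**Figure D5:**
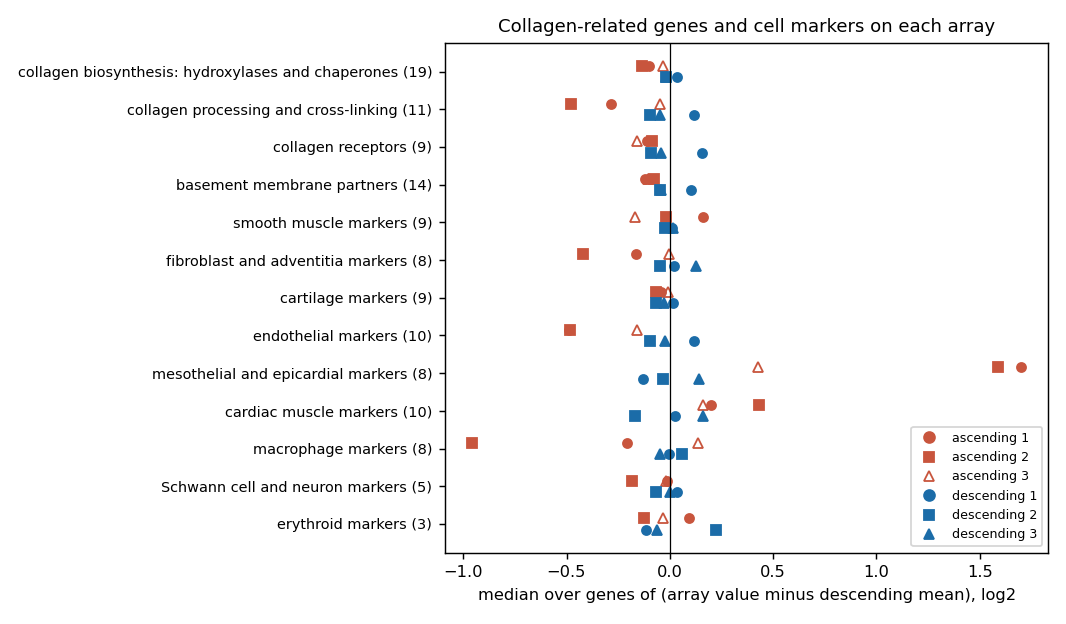
Median over the genes of each list of the array's value minus the descending mean, on the log2 scale. Red symbols are ascending and blue symbols descending arrays, the open triangle is ascending replicate 3, and the number of genes measured is given after each list. The mesothelial list stands at 1.70 and 1.59 on ascending replicates 1 and 2 and the processing and cross-linking list at -0.28 and -0.48.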

How the data were processed

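Expression was measured in total RNA of ascending and descending aorta on Affymetrix microarrays, per the labels. The values are log2 expression per probe set, deposited by the authors after RMA in Partek 6.6, per the submitters' processing notes. RMA corrects background, makes the distributions of the arrays alike and summarises probes, so changes shared by most genes are removed and differences of dim genes shrink. Neither settings nor build are given in the sources used here. The scale was read from the values (2.53 to 14.6, array medians 7.14 to 7.22).

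Of 35556 probe sets, 21789 had 1 gene symbol in the platform annotation, 1621 several and 12146 none. The highest-mean probe set was kept for each of 19938 genes, with no filter on dim genes, so all 44 collagen chains were analysed. Segments were compared with lmFit and eBayes (limma 3.58.1, R 4.3.3) on 6 arrays, in a two-sided test whose p-values were adjusted by Benjamini-Hochberg across every gene, at 0.05. An exact permutation of 3 against 3 arrays cannot go below p = 0.1 and was not used. The fit was tested on simulated data that had the spread of the descending arrays in both groups. No simulated array departed from its group, so that test does not cover the case of ascending replicate 3. Tables and plots used Python 3.11.15, pandas 2.3.3 and matplotlib 3.10.9.

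Per-array values are given for chains at an unadjusted p under 0.05, chains that passed without 1 array, main chains of types I, III and IV and their partners. Up to 4 genes with the smallest p are named per other list, and Acta2, P4ha3, Ddr1 and Lama2 were chosen with their values known. The members and lists were chosen with earlier results of these data known. Alternatives were repeated quantile normalization, median-centring, robust estimation with a variance trend, leaving out each array, a block on replicate number, weighted arrays, averaged probe sets, and a filter on genes under the 25th percentile of the mean level.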

Additional observations from a re-analysis of the deposited data

How the results depend on the processing

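Over all alternatives that kept the 6 arrays, 0 chains passed, and the count lower at an unadjusted p stayed within 1.5 times of 11 except with array weights (18 chains, 4 higher). Leaving out each array in turn gave 0 to 13 called chains, 2 to 20 lower and 1 to 4 higher at an unadjusted p, and a median over the chains from -0.212 to -0.125. The class medians then ran from -0.212 to -0.0981 (fibrillar), -0.104 to -0.0339 (basement membrane), -0.211 to -0.118 (fibril-associated), -1.0 to -0.216 (network) and -0.23 to -0.112 (other). The sign of a single chain turned in 15 of 572 repeats, for 5 chains and by at most 0.0652 from 0. After repeated quantile normalization Col3a1 was at 0.00563 and Col6a4 at 0.0496. After median-centring Col23a1 was at 0.00123 and Col6a4 at 0.0011, and with array weights Col6a4 was at 0.00041. Without ascending replicate 1 Col15a1 was at 0.00924, Col23a1 at 0.0518 and Col3a1 at 0.0193, and without ascending replicate 2 Col18a1 was at -0.00787, Col23a1 at 0.0652 and Col6a4 at 0.0247. Without descending replicate 1 Col15a1 was at 0.00287 and Col23a1 at 0.00735, without descending replicate 2 Col23a1 was at 0.00572, and without descending replicate 3 Col6a4 was at 0.011. The cause was not tested. For chains that changed sign elsewhere, the values without ascending replicate 3 were -0.188 (Col15a1), 0.261 (Col18a1), -0.134 (Col23a1) and -0.0706 (Col3a1), and Col6a4 was at -0.0242 without ascending replicate 1.

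With the replicate block 10 chains were lower and 3 higher at an unadjusted p and 0 passed. Same-numbered arrays did not deviate together (Pearson's r of deviations across genes -0.0798, -0.0548 and 0.024). The deviations were taken from means of only 3 arrays, so these values cannot settle whether the numbers pair samples. With 3 arrays a segment, precision is limited by their number.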

Other observations

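The median spread of collagen chains was below that of all genes within descending aorta and above it within ascending aorta. The median SD over the 44 chains was 0.0684 between the 3 descending arrays, where that of all genes was 0.101, and 0.185 between the 3 ascending arrays, where that of all genes was 0.118. Ascending replicates 1 and 2 differed by a median of 0.11 over the chains and of 0.135 over all genes. These are descriptions of these 6 arrays, and no test was made.

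The chains did not all place ascending replicate 3 with the descending arrays. For Col6a5 it stood at 0.814 and for Col5a3 at 0.667 where the descending mean is 0 and the mean of the other ascending arrays is 1, against 0.0101 for Col8a1 and -0.0577 for Col26a1. Col11a1 set against Col11a2 as a log2 ratio deviated from the descending mean by -0.96, -0.97 and 0.21 in ascending replicates 1, 2 and 3, whereas Col4a2 against Col4a1 deviated by -0.04, -0.21 and -0.03.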
